A study of Mus musculus with 6 samples.

Results

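NRF2, the product of Nfe2l2, is the transcription factor that raises antioxidant and detoxification genes under oxidative or electrophilic stress. KEAP1 binds NRF2 in the cytosol and hands it to a ubiquitin ligase for destruction; when cysteines of KEAP1 are modified, NRF2 escapes, enters the nucleus with a small MAF partner and binds antioxidant response elements near its targets. In the liver these targets build and recycle glutathione and thioredoxin, and fat accumulation with inflammation is a setting in which the pathway is studied. The set described here holds 10 genes chosen by symbol: the regulator Nfe2l2, its inhibitor Keap1, and 8 genes of the antioxidant programme (Nqo1, Gclc, Gclm, Txnrd1, Srxn1, Gsr, Slc7a11 and Gpx4). All 10 were found among the 17119 gene symbols of the count table, and 9 of them were among the 12706 genes with enough counts to be tested.

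RNA was sequenced from whole liver in 3 samples from Clec4f-iCre;Cebpbfl/+ mice, called Hete livers as in the labels, and in 3 samples from Clec4f-iCre;Cebpb+/+ littermates, called WT livers. Every animal carried iCre and had eaten a high-fat high-cholesterol diet for 12 weeks, so no liver on ordinary food and none without the recombinase was compared. Expression of iCre from Clec4f is meant to reach only Kupffer cells, the macrophages that reside in liver, so that 1 copy of Cebpb, a transcription factor gene, is lost there and other liver cells keep both. The genotype labels of replicates 2 and 3 name Clec5f and Clec6f in place of Clec4f, and the series design, which names Clec4f throughout, was followed. Strain, sex and age were not stated in the sources used. The labels do not say that the samples come from separate mice, and the spread that the p-values rest on may therefore be technical.

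Libraries held 16895322 to 17149924 counts in Hete livers and 17665622 to 17750755 in WT livers. Levels are given in CPM, counts scaled to the library size after TMM normalization, and log2 fold changes are Hete over WT with their SE from edgeR. Cebpb itself measured 204, 498 and 269 CPM in Hete replicates 1, 2 and 3, and 506, 308 and 340.4 CPM in WT replicates 1, 2 and 3, with overlapping groups (edgeR adjusted p = 0.864), so the level in whole tissue does not check the deletion in Kupffer cells. All 10 hepatocyte markers were detected, none at 0 in any library, with a summed level of 111891 to 133328 CPM in Hete and 102507 to 135006 CPM in WT livers. Over all genes 74 of 12706 passed an edgeR adjusted p of 0.05, or 0.582%, with 3 higher (0.0236%) and 71 lower (0.559%) in Hete livers. WT replicate 1 stood apart in its acute phase genes, which hepatocytes switch on in inflammation: their mean log2 CPM over 20 genes was 8.03, 8.91 and 8.19 in Hete replicates 1, 2 and 3, and 10.27, 8.70 and 9.03 in WT replicates 1, 2 and 3.

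An antioxidant response element is the DNA motif that NRF2 and its MAF partner read, and its core can be written TGANNNNGC. This core was sought on both strands in windows of 300 bases, 250 before to 50 after each RefSeq gene start of build GRCm38.p6. Of the 10 genes, 8 had a window, 13 windows in all, and Gclc and Gsr had none. The core lay in windows of 6 of these 8 genes (Nfe2l2, Keap1, Gclm, Txnrd1, Srxn1 and Slc7a11), and 45.0% of all genes with a window had it. The tighter form TGACNNNGC, which is contained in the other, lay in windows of 4 genes (Nfe2l2, Gclm, Txnrd1 and Srxn1), against 14.0% of all genes. The 250 bases before the start of Gclm, a gene whose Hete and WT libraries did not overlap, and of Srxn1, the gene with the most cores, are shown on the gene's strand, with each core in capitals.
Gclm, chr3:122245307-122245556: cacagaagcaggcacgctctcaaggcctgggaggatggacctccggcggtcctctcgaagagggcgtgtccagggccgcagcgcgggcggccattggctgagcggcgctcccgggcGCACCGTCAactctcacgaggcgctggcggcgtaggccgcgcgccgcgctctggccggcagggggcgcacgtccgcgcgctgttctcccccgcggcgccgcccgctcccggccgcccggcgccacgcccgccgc
Srxn1, chr2:152105274-152105523: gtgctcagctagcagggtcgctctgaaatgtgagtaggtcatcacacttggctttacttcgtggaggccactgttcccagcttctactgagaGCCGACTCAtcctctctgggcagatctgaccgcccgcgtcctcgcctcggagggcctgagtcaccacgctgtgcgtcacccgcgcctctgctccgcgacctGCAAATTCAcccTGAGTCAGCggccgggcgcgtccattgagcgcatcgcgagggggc
The Gclm core reads TGACGGTGC on the opposite strand and begins 134 bases before the start. In Srxn1 the cores begin 158, 57 and 45 bases before the start, the last of them as TGAGTCAGC on the gene's own strand, and another lies 28 bases after the start, outside the bases shown. A match in these windows is a description of the letters and was not tested as a binding site. Bases outside the windows were not searched, so a window without a core does not show that the gene lacks one.

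Among the 9 tested genes of the set, the subunits of the enzyme that starts glutathione synthesis had the largest log2 fold changes, and neither passed the edgeR threshold. Gclc encodes the catalytic subunit of glutamate-cysteine ligase, the rate-limiting enzyme of glutathione synthesis. Gclc measured 696, 473 and 495 CPM in Hete replicates 1, 2 and 3, and 209, 316 and 349.8 CPM in WT replicates 1, 2 and 3. Every Hete library lay above every WT library, with the highest value in Hete replicate 1 and the lowest in WT replicate 1. The means were 555 ± 123 CPM in Hete and 291 ± 73.6 CPM in WT livers (SD, n = 3 each), a 1.90-fold higher level in Hete livers. The log2 fold change of 0.93 ± 0.22 (95% interval 0.42 to 1.44) did not pass the threshold over all genes (edgeR adjusted p = 0.106), and Gclc ranked 342 of 12706 genes by p. DESeq2 on the same genes called Gclc higher (log2 fold change 0.94, adjusted p = 0.00193), as it did 0.645% of genes, of 4.20% called in either direction.

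Gclm encodes the modifier subunit of the same ligase, which makes the enzyme more efficient. Gclm stood at 162.6, 162.7 and 147 CPM in Hete replicates 1, 2 and 3, and at 116, 128 and 133 CPM in WT replicates 1, 2 and 3. Again the groups did not overlap, and WT replicate 1 was lowest. The means were 158 ± 8.88 CPM in Hete and 125 ± 9.04 CPM in WT livers (SD, n = 3 each), with a log2 fold change of 0.33 ± 0.11 (95% interval 0.08 to 0.57; edgeR adjusted p = 0.210; DESeq2 adjusted p = 0.134). Gclc had 4.28, 2.91 and 3.36 counts for each Gclm count in Hete replicates 1, 2 and 3, and 1.81, 2.47 and 2.63 in WT replicates 1, 2 and 3, so the catalytic subunit differed by more than the modifier.

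At the extremes the acute phase level lay opposite to Gclc. Hete replicate 1 had the lowest acute phase mean and the highest Gclc, and WT replicate 1 the highest acute phase mean and the lowest Gclc. Between them, Hete replicate 3 (8.19 and 495 CPM), Hete replicate 2 (8.91 and 473 CPM) and WT replicate 3 (9.03 and 349.8 CPM) kept this inverse order. WT replicate 2 did not. WT replicate 2 had a lower acute phase mean than Hete replicate 2 (8.70 against 8.91) and also lower Gclc (316 against 473 CPM). The part of the acute phase level in the difference was not tested beyond the values that follow. With the acute phase mean as a covariate, which may itself take out part of the group difference, the log2 fold change was 0.52 ± 0.18 for Gclc (edgeR adjusted p = 0.208) and 0.26 ± 0.13 for Gclm (edgeR adjusted p = 0.431). Without WT replicate 1 it was 0.76 for Gclc and 0.29 for Gclm (edgeR adjusted p = 0.125 and 0.359).

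**Figure D1:**
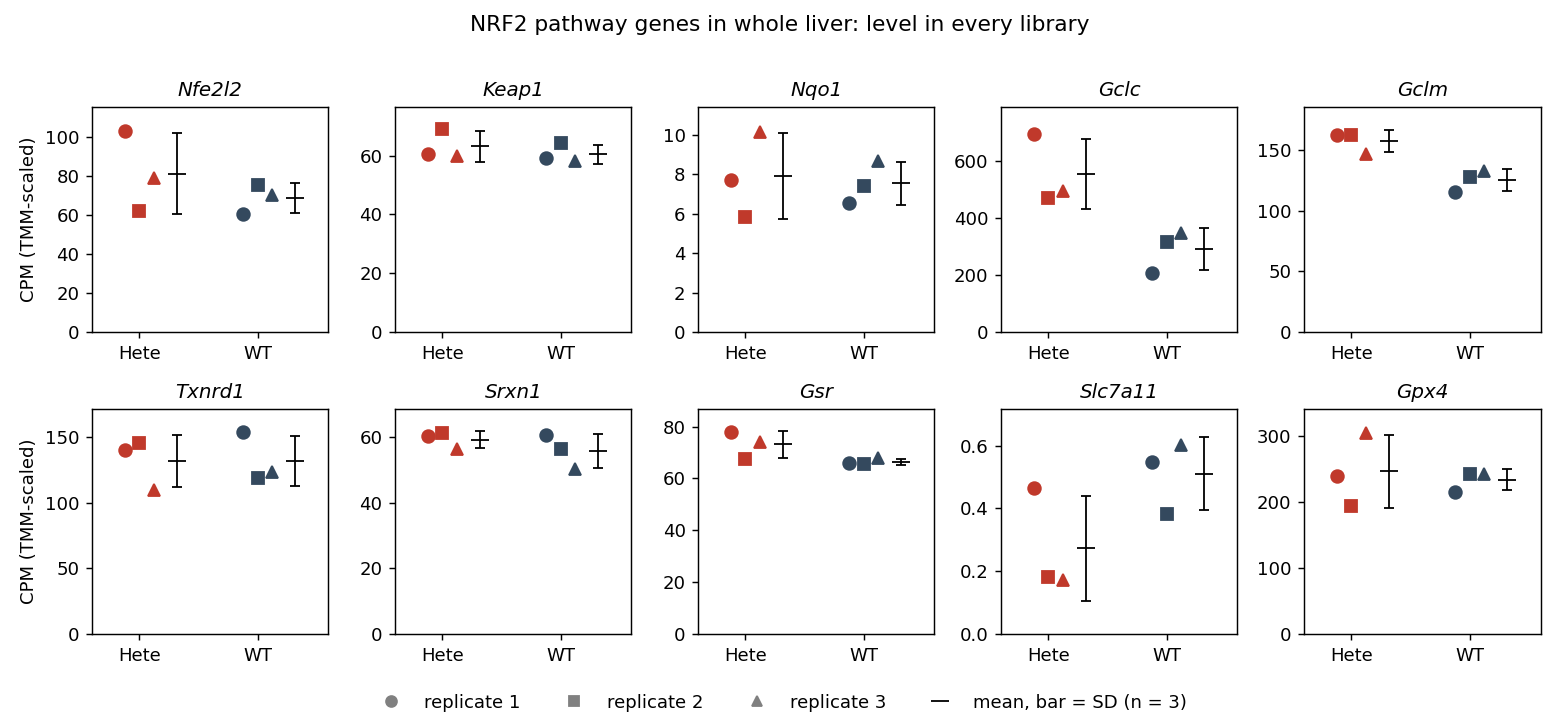
Level of each of the 10 genes in CPM (vertical axis, from 0) in the 3 Hete and 3 WT libraries; marker shapes stand for replicate numbers, and the black bar is the mean with the SD (n = 3). Only Gclc and Gclm have all Hete points above all WT points, and Slc7a11 lies under 1 CPM throughout.

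The regulator pair showed no difference past the spread between libraries. Nfe2l2 measured 103, 61.8 and 78.9 CPM in Hete replicates 1, 2 and 3, and 60.3, 75.4 and 70.2 CPM in WT replicates 1, 2 and 3. For Nfe2l2, Hete replicate 2 lay within the WT range and the other Hete libraries above it. The means were 81.1 ± 20.5 CPM in Hete and 68.6 ± 7.66 CPM in WT livers (SD, n = 3 each). The log2 fold change was 0.24 ± 0.18 (95% interval −0.17 to 0.65; edgeR adjusted p = 0.669), and it was 0.05 without Hete replicate 1 and 0.40 without Hete replicate 2. NRF2 is controlled mainly through the stability of its protein, which RNA does not show.

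Keap1, the inhibitor, was among the steadiest of the genes. It measured 60.5, 69.1 and 59.9 CPM in Hete replicates 1, 2 and 3, and 59.2, 64.2 and 58.2 CPM in WT replicates 1, 2 and 3. The groups overlapped, and Hete exceeded WT by 0.06 ± 0.11 on the log2 scale (95% interval −0.18 to 0.31; edgeR adjusted p = 0.895). In the GENCODE M21 annotation an exon of Gm16754 overlaps Keap1 on the opposite strand; the libraries were made with a stranded kit, but the strand setting of the counting is not given in the sources used here, so reads of the pair may be mixed.

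Nqo1 encodes a quinone reductase and is widely used as a readout of NRF2 activity. It measured 7.69, 5.81 and 10.2 CPM in Hete replicates 1, 2 and 3, and 6.53, 7.40 and 8.65 CPM in WT replicates 1, 2 and 3. The Hete libraries held both the highest and the lowest value. The means of 7.88 ± 2.17 CPM in Hete and 7.52 ± 1.07 CPM in WT livers (SD, n = 3 each) gave a log2 fold change of 0.07 ± 0.23 (95% interval −0.45 to 0.59; edgeR adjusted p = 0.952), which leaves room for a difference of about the size seen in Gclm in either direction.

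The genes that recycle thioredoxin and glutathione were close between the groups. Txnrd1, thioredoxin reductase, measured 140.5, 146 and 109.5 CPM in Hete replicates 1, 2 and 3, and 154, 119 and 123 CPM in WT replicates 1, 2 and 3. Its log2 fold change was −0.0027 ± 0.15 (95% interval −0.34 to 0.33; edgeR adjusted p = 0.998), and the sign depended on the scaling (0.0040 with RLE). Gsr, which regenerates reduced glutathione with NADPH, measured 77.9, 67.6 and 74.0 CPM in Hete replicates 1, 2 and 3, and 66.1, 65.6 and 67.8 CPM in WT replicates 1, 2 and 3. Hete replicate 2 lay within the WT range for Gsr and the other Hete libraries above it (0.14 ± 0.10 on the log2 scale, 95% interval −0.09 to 0.37; edgeR adjusted p = 0.660). Srxn1, sulfiredoxin, which repairs overoxidised peroxiredoxins, measured 60.2, 61.1 and 56.3 CPM in Hete replicates 1, 2 and 3, and 60.7, 56.3 and 50.2 CPM in WT replicates 1, 2 and 3. The Srxn1 groups overlapped (0.09 ± 0.11 on the log2 scale, 95% interval −0.16 to 0.34; edgeR adjusted p = 0.826).

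Gpx4 and Slc7a11 belong to the defence against ferroptosis, a death by lipid peroxidation. Gpx4, the peroxidase that reduces lipid hydroperoxides in membranes, measured 241, 195 and 305 CPM in Hete replicates 1, 2 and 3, and 216, 243 and 243 CPM in WT replicates 1, 2 and 3. Hete replicate 3 was the highest of the 6 libraries and Hete replicate 2 the lowest (0.08 ± 0.16 on the log2 scale, 95% interval −0.29 to 0.45; edgeR adjusted p = 0.919). GENCODE M21 lists a pseudogene, Gpx4-ps2, so that reads of near-identical sequence could be divided. Slc7a11, the cystine importer that feeds glutathione synthesis in many cell types, had 8, 3 and 3 counts in Hete replicates 1, 2 and 3, and 9, 7 and 11 counts in WT replicates 1, 2 and 3. This is at most 0.602 CPM in any library; the gene did not pass the filter, its groups overlapped, and without a filter its log2 fold change was −0.86 ± 0.62 (edgeR adjusted p = 0.678). Slc7a11 is known to be low in normal liver.

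Across the set, 0 of the 9 tested genes passed the threshold, against 0.582% of all tested genes; by DESeq2 1 gene, Gclc, passed. At an unadjusted edgeR p under 0.05 there were 2 of 9, Gclc and Gclm, both higher, against 13.2% of all tested genes, or 4.20% counting only those higher in Hete livers. The groups did not overlap for the same 2 of 9 genes, against 18.4% of all tested genes, and both were higher in Hete livers, as for 7.05% of all tested genes, with 11.3% lower. Fold changes were positive for 8 of the 9, against 51.0% of all tested genes, and their median log2 fold change was 0.09, against 0.0048 over all tested genes. These shares are given as a description; 9 genes that share libraries do not make a test.

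**Figure D2:**
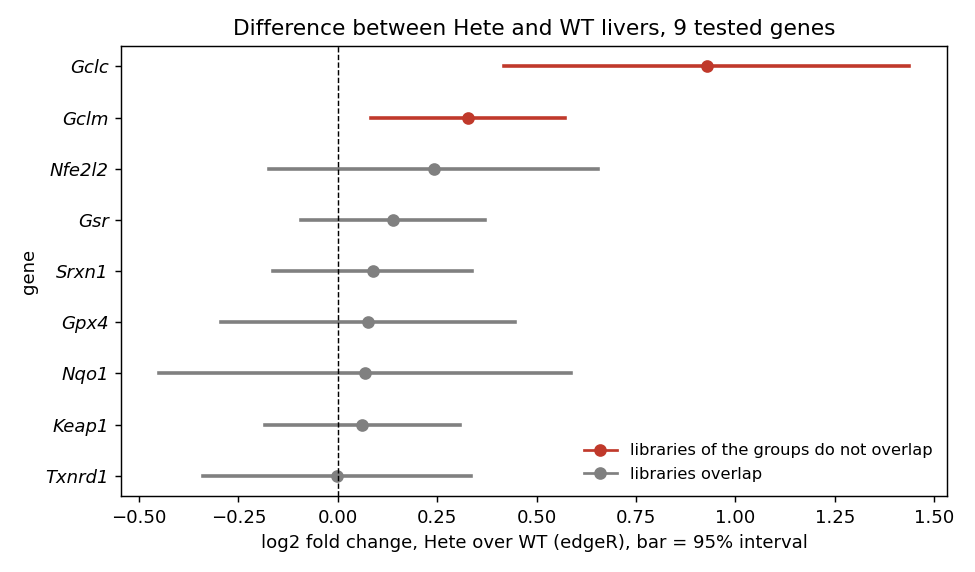
Log2 fold change of Hete over WT (horizontal axis) for the 9 tested genes, with the 95% interval of the edgeR fit; red marks genes whose Hete and WT libraries do not overlap. The intervals of Gclc (0.42 to 1.44) and Gclm (0.08 to 0.57) lie above 0, before adjustment over all genes, and the other 7 include it.

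Within the groups the genes did not move as a block. Set against each gene's own mean over 6 libraries, Hete replicate 1 was highest for Gclc (0.82 on the log2 scale), Nfe2l2 (0.48) and Gsr (0.16). Hete replicate 3 was highest for Nqo1 (0.42) and Gpx4 (0.36) and lowest for Txnrd1 (−0.26). Hete replicate 2 was lowest for Nqo1 (−0.38) and Gpx4 (−0.29) and highest for Keap1 (0.16). So the quinone reductase and the lipid peroxidase ranked the Hete libraries in 1 order, and Nfe2l2 and the glutathione genes Gclc and Gsr in another. Gclm followed neither order, with 0.212, 0.213 and 0.069 in Hete replicates 1, 2 and 3. WT replicate 1, the library with the high acute phase level, was lowest for Gclc (−0.92), Gclm (−0.28) and Nfe2l2 (−0.29) and highest for Txnrd1 (0.23). Among the 9 tested genes the widest range was that of Gclc, 3.33-fold from the lowest to the highest library, and the narrowest those of Gsr and Keap1, each 1.19-fold.

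**Figure D3:**
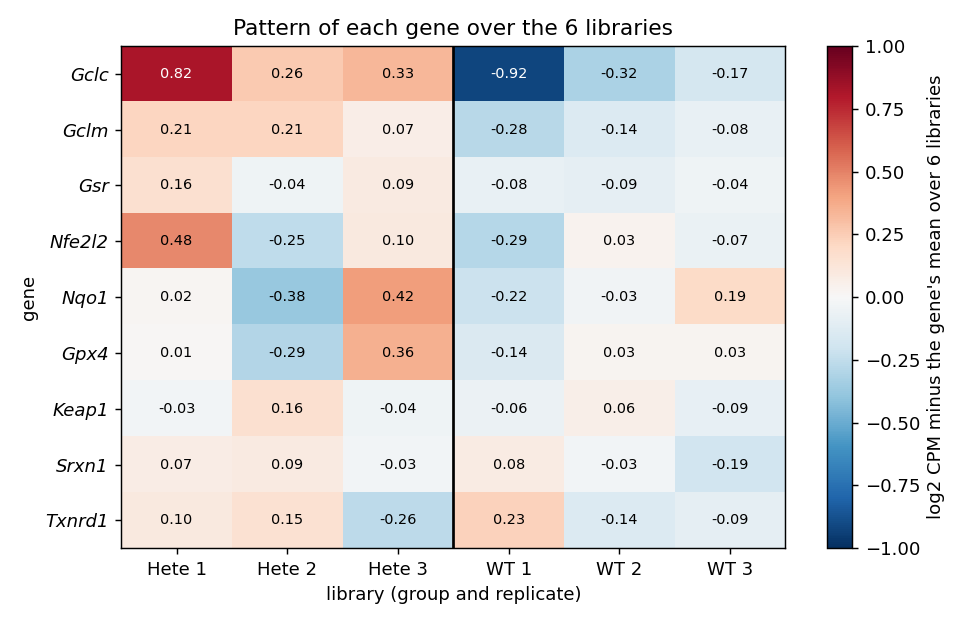
Log2 CPM of the 9 tested genes (rows) in each library (columns, Hete left of WT), minus the gene's mean over the 6 libraries; red is above and blue below that mean. Gclc runs between 0.82 in Hete replicate 1 and −0.92 in WT replicate 1, while Nqo1 and Gpx4 are highest in Hete replicate 3 and lowest in Hete replicate 2.

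Between genes, levels were compared per kilobase of the union of GENCODE M21 exons, which overstates the length of genes with several isoforms. Gpx4 was highest, at 194 CPM per kilobase in Hete and 184 in WT livers, followed by Gclc at 162 in Hete and 85.1 in WT livers. The Gpx4 and Gclc libraries overlapped in Hete livers (153 to 239.9 against 138 to 203 CPM per kilobase) and were apart in WT livers (169.7 to 191 against 61.0 to 102). Txnrd1 and Nfe2l2 came next and overlapped each other in both groups, with means of 32.4 and 32.8 CPM per kilobase in Hete and 32.5 and 27.7 in WT livers. Gsr overlapped Nfe2l2 in both groups. Gsr and Gclm overlapped each other in Hete livers, at 27.4 and 28.2 CPM per kilobase, but not in WT livers, at 24.9 and 22.5. Srxn1 (21.1 in Hete and 19.8 in WT livers), Keap1 (14.0 in Hete and 13.5 in WT), Nqo1 (5.08 in Hete and 4.84 in WT) and Slc7a11 (0.0277 in Hete and 0.0518 in WT) followed in that order. Gclm and Srxn1 overlapped in WT livers but not in Hete livers, and from Srxn1 down no neighbours overlapped.

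The 5 tested genes outside the set whose pattern was most like the mean standardized log2 CPM of the 7 tested target genes were Abhd18, Zcrb1, Vps45, LOC114841036 and Ces1f, with Pearson r of 0.993, 0.993, 0.990, 0.987 and 0.987 over 6 libraries. With 12706 genes and 6 libraries that share 2 groups, values of this size are a description only. Each target gene is itself part of that mean, which raises its r by construction. Among them Gsr (0.968) and Gclc (0.897) were most like the mean, and Txnrd1 (−0.118) least. Ces1f, which encodes a liver carboxylesterase, measured 632, 515 and 585 CPM in Hete replicates 1, 2 and 3, and 423, 454 and 463 CPM in WT replicates 1, 2 and 3 (edgeR adjusted p = 0.203).

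Of 30 further NRF2 targets, 28 were tested. At the threshold 1 was lower and 0 were higher, against 0.559% and 0.0236% of all tested genes. The lower gene was Hmox1, haem oxygenase, which macrophages express when they take up red cells. It measured 23.1, 26.3 and 26.6 CPM in Hete replicates 1, 2 and 3, and 56.5, 82.5 and 51.9 CPM in WT replicates 1, 2 and 3. The groups did not overlap, and the log2 fold change was −1.33 ± 0.18 (edgeR adjusted p = 0.0308). Over 16 alternatives Hmox1 passed in 10, with adjusted p between 1.28e-07 and 0.180. It missed the threshold without Hete replicate 1, Hete replicate 2 or WT replicate 1 (edgeR adjusted p = 0.180, 0.178 and 0.0521). The other misses were limma-voom (adjusted p = 0.0549), the replicate number as a block (edgeR adjusted p = 0.177), and WT replicate 1 and Hete replicate 2 both left out (edgeR adjusted p = 0.118).

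Of the 28 tested targets, Hmox1 included, 23 had positive fold changes, against 51.0% of all tested genes. The median log2 fold change was 0.11, against 0.0048 over all tested genes. These targets share libraries, so the count is a description and was not tested. Abcc2, which exports glutathione conjugates into bile, measured 394, 347 and 316 CPM in Hete replicates 1, 2 and 3, and 238, 286 and 233 CPM in WT replicates 1, 2 and 3. The groups did not overlap, and its log2 fold change of 0.48 ± 0.13 passed in DESeq2 (adjusted p = 0.0312) but not in edgeR (adjusted p = 0.139). Aox1, aldehyde oxidase, averaged 167 ± 34.7 CPM in Hete and 113 ± 23.2 CPM in WT livers with overlapping libraries (SD, n = 3 each; edgeR adjusted p = 0.224). Cbr3, a carbonyl reductase gene, averaged 1.20 ± 0.59 CPM in Hete and 2.59 ± 0.79 CPM in WT livers, with all Hete libraries below all WT libraries (SD, n = 3 each; log2 fold change −1.11 ± 0.40; edgeR adjusted p = 0.258). The ferritin genes Fth1 and Ftl1, which store iron, had log2 fold changes of 0.01 ± 0.14 and 0.11 ± 0.14, and Gsta1 and Gsta2, whose reads may be shared with close copies, 0.04 ± 0.71 and 0.51 ± 0.45.

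Among 12 genes that control NRF2 or compete for its sites, 11 were tested and 0 passed, with a median log2 fold change of −0.06. Bach2, a repressor that binds the same MAF partners and is best known from lymphocytes, measured 9.90, 6.72 and 6.88 CPM in Hete replicates 1, 2 and 3, and 2.87, 2.72 and 4.32 CPM in WT replicates 1, 2 and 3. All Hete libraries lay above all WT libraries (log2 fold change 1.24 ± 0.26; edgeR adjusted p = 0.0645), and the gene passed in DESeq2 (adjusted p = 0.00130) and without a filter on low counts (edgeR adjusted p = 0.0325). Mafk and Maff, small MAF partners, had log2 fold changes of −0.30 ± 0.21 and −0.29 ± 0.30. Cul3, the scaffold of the ligase that KEAP1 serves, averaged 52.6 ± 2.82 CPM in Hete and 54.9 ± 1.93 CPM in WT livers (SD, n = 3 each; edgeR adjusted p = 0.881).

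NADPH feeds both glutathione and thioredoxin reductase, and 0 of 10 tested genes of its supply passed the threshold. G6pdx, the first enzyme of the pentose phosphate pathway, measured 6.52, 6.30 and 8.60 CPM in Hete replicates 1, 2 and 3, and 11.2, 17.5 and 16.5 CPM in WT replicates 1, 2 and 3. The groups did not overlap (log2 fold change −1.08 ± 0.21; edgeR adjusted p = 0.0561), and over the alternatives the adjusted p of G6pdx ran from 0.000909 to 0.249, with 3 of 16 past the threshold. Pgd, the next dehydrogenase of that pathway, averaged 45.1 ± 4.87 CPM in Hete and 59.6 ± 8.23 CPM in WT livers, and Aldh1l1, a folate enzyme, 958 ± 97.9 CPM in Hete and 1271 ± 116 CPM in WT livers (SD, n = 3 each; edgeR adjusted p = 0.224 and 0.199). The median over the 10 was −0.02.

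Further genes of glutathione synthesis and recycling, 17 tested of 18, had a median log2 fold change of 0.01 with 0 past the threshold. Gss, glutathione synthetase, which adds glycine to the product of the ligase, measured 109, 102 and 92.2 CPM in Hete replicates 1, 2 and 3, and 89.4, 87.6 and 89.7 CPM in WT replicates 1, 2 and 3. The Hete libraries lay above the WT libraries by a small margin (log2 fold change 0.18 ± 0.10; edgeR adjusted p = 0.519). Chac2, which degrades glutathione, averaged 20.5 ± 1.53 CPM in Hete and 16.1 ± 1.86 CPM in WT livers, and Ggt5, a cell-surface glutamyl transferase, 3.80 ± 1.85 CPM in Hete and 6.92 ± 1.03 CPM in WT livers (SD, n = 3 each; edgeR adjusted p = 0.294 and 0.286). Slc3a2, the partner chain of Slc7a11 in the cystine importer, had a log2 fold change of 0.01 ± 0.13.

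Of 20 peroxidase, thioredoxin and dismutase genes 0 passed, with a median log2 fold change of 0.02. The lowest p-values were those of Txnip, an inhibitor of thioredoxin, at 97.7 ± 21.6 CPM in Hete and 161 ± 30.0 CPM in WT livers, and Sod3, the extracellular superoxide dismutase, at 44.2 ± 11.7 CPM in Hete and 69.6 ± 7.99 CPM in WT livers (SD, n = 3 each; edgeR adjusted p = 0.130 and 0.147). Gpx3, the secreted peroxidase, averaged 8.59 ± 4.68 CPM in Hete and 22.4 ± 9.14 CPM in WT livers (SD, n = 3 each; edgeR adjusted p = 0.305). DESeq2 called these 3 genes, Txnip, Sod3 and Gpx3, lower, as it did 452 of all 12706 tested genes. Gpx4 and Txnrd1 are selenoproteins; of 10 genes of selenoprotein synthesis and further selenoproteins 0 passed, with a median of 0.03, and Sephs1, Sepsecs and Pstk had log2 fold changes of 0.23 ± 0.12, 0.20 ± 0.10 and 0.31 ± 0.18.

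Lists of the neighbouring stress programmes held 0 calls too. For ferroptosis, 11 genes were tested of 12, with a median of −0.02; Alox12, Slc40a1 and Lpcat3 had log2 fold changes of 0.67 ± 0.37, −0.23 ± 0.17 and 0.27 ± 0.21. For ATF4 targets, which share Slc7a11 with NRF2, all 12 were tested with a median of −0.25. Fgf21, a hormone of the stressed liver, averaged 3.87 ± 0.90 CPM in Hete and 2.25 ± 0.66 CPM in WT livers (SD, n = 3 each; edgeR adjusted p = 0.282), and Ddit3 and Psat1 had log2 fold changes of −0.45 ± 0.22 and −0.79 ± 0.42.

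**Figure D4:**
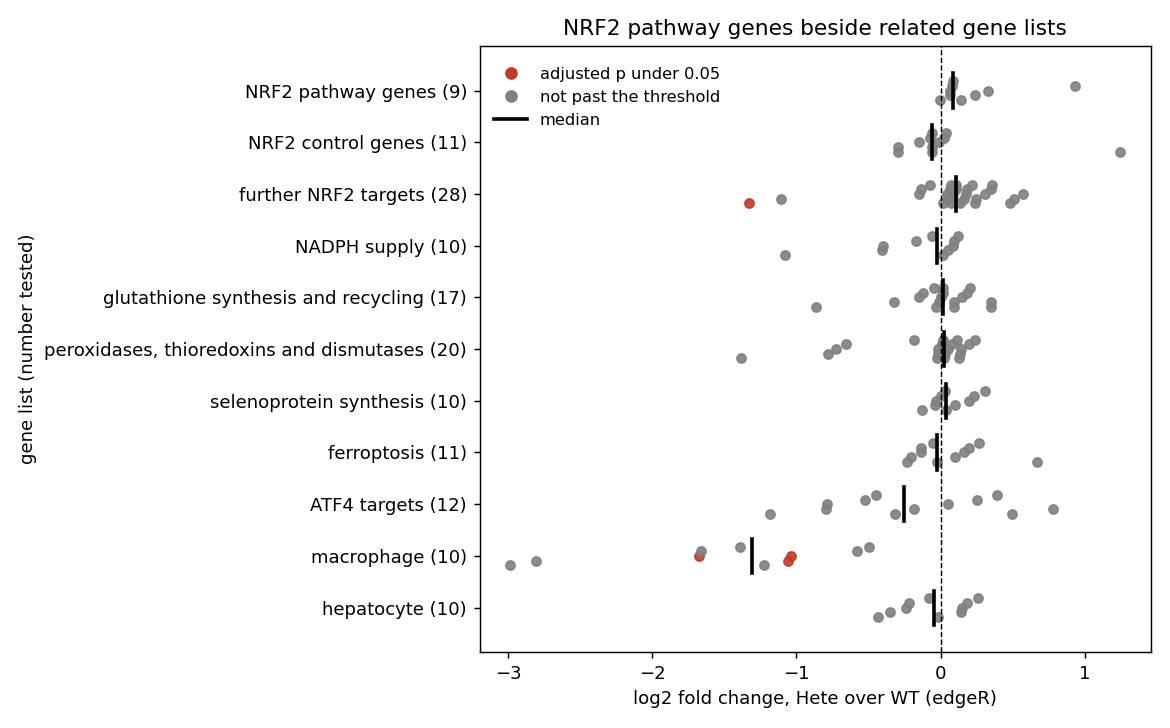
Log2 fold change of Hete over WT (horizontal axis) for each tested gene of the NRF2 pathway set, 8 related lists and the macrophage and hepatocyte markers, with the median as a black bar; red marks an edgeR adjusted p under 0.05. Medians of the antioxidant lists lie near 0, Hmox1 is the red point among the further NRF2 targets, and the macrophage markers lie below 0.

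In whole liver, fewer cells of a type and less RNA per cell cannot be told apart. All 10 macrophage markers were detected in every library, and all had negative fold changes, 3 of them past the threshold (Lyz2, Cd68 and C1qa), with a summed level of 295 to 326 CPM in Hete and 651 to 1149.7 CPM in WT livers. The 5 monocyte markers summed to 13.9 to 17.8 CPM in Hete and 28.3 to 42.0 CPM in WT livers, and Ccr2 passed. Lyz2, Cd68, C1qa and Ccr2 all missed the threshold without Hete replicate 1, Hete replicate 2 or WT replicate 3 (edgeR adjusted p between 0.0544 and 0.218); without WT replicate 2, Lyz2 alone of them passed (0.0468), as it did without WT replicate 1 (0.0316). Clec4f, a Kupffer cell marker, measured 4.31, 4.97 and 3.90 CPM in Hete replicates 1, 2 and 3, and 48.6, 38.5 and 5.42 CPM in WT replicates 1, 2 and 3 (edgeR adjusted p = 0.260). WT replicate 3 was close to the Hete livers, so leaving it out widens the gap by construction, and Clec4f then passed (edgeR adjusted p = 0.000607). Over the alternatives Clec4f passed in 2 of 16, with an adjusted p of up to 0.662. These marker levels moved in the same direction as Hmox1 and G6pdx and opposite to Gclc and Gclm. The part of the markers in those differences was not tested. Of 10 hepatocyte markers 0 passed (median −0.05; Ass1 −0.44 ± 0.16, Ttr 0.26 ± 0.15 and Cps1 −0.22 ± 0.17 had the lowest p-values). Likewise 0 passed of 6 endothelial (median 0.07), 6 stellate (−0.39), 5 cholangiocyte (−0.51), 5 red blood cell (0.23) and 20 acute phase genes (−0.68). All 20 acute phase genes had negative fold changes, against 6230 of all 12706 tested genes. For 5 of these 20 all Hete libraries lay below all WT libraries, against 11.3% of all tested genes.

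The position of Gclc and Gclm held for the direction in every setting tried. Over 16 alternatives the log2 fold change ran from 0.52 to 1.08 for Gclc and from 0.26 to 0.38 for Gclm. The adjusted p ran from 0.00193 to 0.305 for Gclc, past the threshold in DESeq2 alone, and from 0.134 to 0.572 for Gclm. Since the groups of both genes did not overlap, leaving out a library could not be expected to turn their sign. Of all tested genes the share called was 4.20% in DESeq2, 1.27% without a filter, 2.16% with the acute phase covariate, 0.0310% without WT replicate 1, 0.0467% without WT replicate 2, 0.156% without WT replicate 3, 0.945% without Hete replicate 3 and 0.0313% without WT replicate 1 and Hete replicate 2 together. Without Hete replicate 1, the library with the highest Gclc, the log2 fold change of Gclc was 0.75 (edgeR adjusted p = 0.305).

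**Figure D5:**
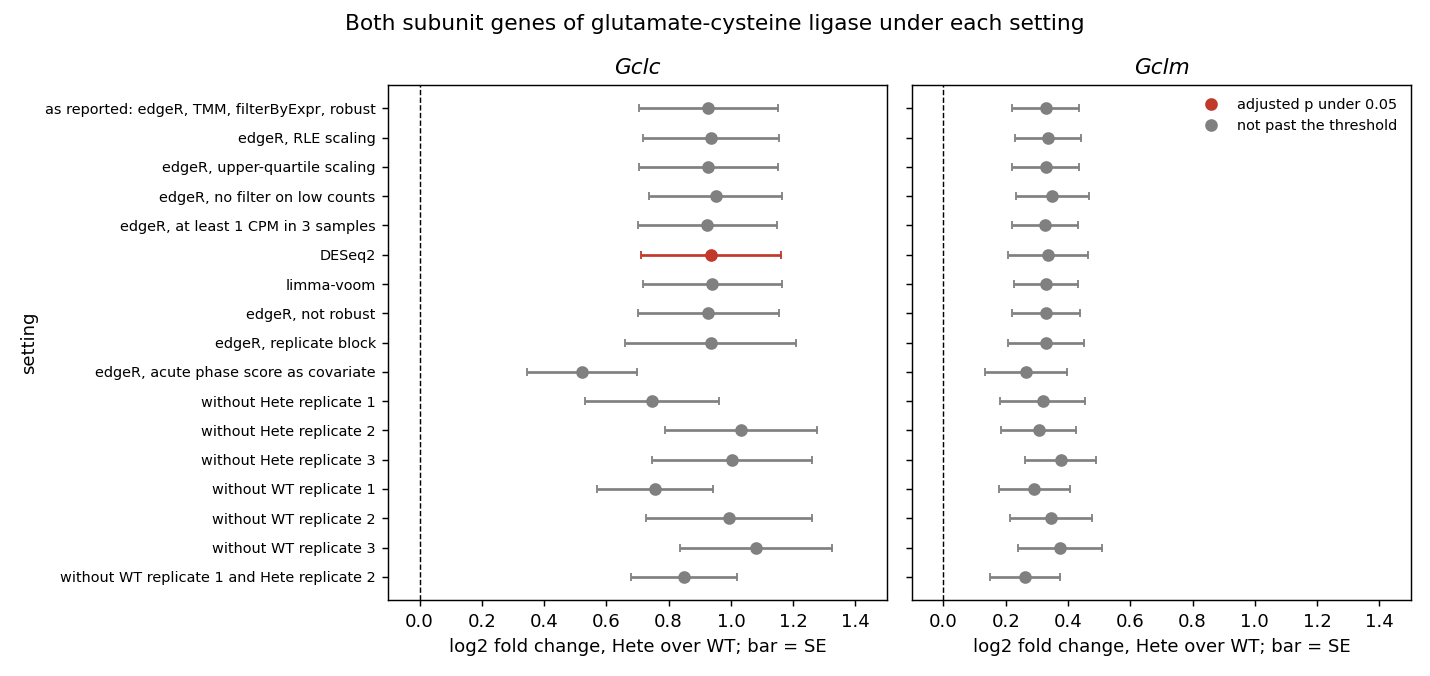
Log2 fold change of Hete over WT with its SE (horizontal axis) for Gclc and Gclm under the reported fit and 16 alternatives (rows); red marks an adjusted p under 0.05. All values are above 0, the lowest for Gclc being 0.52 with the acute phase covariate, and DESeq2 for Gclc is the red point.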

How the data were processed

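The authors deposited raw counts, whole reads per gene symbol without normalization, with 1 column for each of 6 samples. Per the submitters' processing notes, the tools were HTSeq 0.9.1, HISAT2 2.2.1.0 and Trimmomatic 0.36, and the build was GRCm39; annotation, strand setting and filters: not given in the sources used here. Per the labels' protocols, 500 ng of TRIzol-extracted RNA went into stranded mRNA libraries. All columns were used, and 0 rows lacked a gene name.

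Groups came from sample titles. In R 4.3.3, genes were filtered (filterByExpr, minimum count 10), scaled by TMM and tested with edgeR 4.0.16 (glmQLFit and glmQLFTest, robust, no covariates), with Benjamini-Hochberg adjustment over all tested genes at 0.05. Each SE was derived from the fold change and its F statistic, and 95% intervals from that SE. log2 CPM used a prior count of 2. The test was tried on simulated counts. Alternatives used DESeq2 1.42.0 and limma 3.58.1 (voom) among others. The labels name no pairing of Hete with WT libraries, and none was taken. Deviations of same-numbered Hete and WT libraries from their group means had r of −0.21, −0.31 and 0.19. Deviations of 3 libraries in a group depend on one another, so these values cannot decide whether the libraries were paired. No 2 libraries agreed within sampling noise.

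Members, lists, tests and alternatives were chosen with earlier results of these data known. Named genes are the 10 members, Cebpb, Clec4f, from each of 17 lists (the members, NRF2 control, further NRF2 targets, NADPH supply, glutathione, peroxidases, selenoproteins, ferroptosis, ATF4, acute phase and 7 cell type lists) the genes past the threshold and up to 3 more with the smallest p, and the 5 most alike in pattern; a few others were named after their values were seen. The search for TGANNNNGC was added after seeing the data. Protein sequences were not analysed here. Counts limit precision: intervals cover the spread between these libraries.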

Additional observations from a re-analysis of the deposited data

How the results depend on the processing

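With 3 libraries a group, the number of genes past the threshold depended on the setting. Against 74 genes, edgeR called 50 with RLE scaling, 37 with upper-quartile scaling, 48 with at least 1 CPM in 3 samples, 211 with no filter, 20 with a non-robust fit and 274 with the acute phase covariate. DESeq2 called 534, and limma-voom 0, with 1686 genes at an unadjusted p under 0.05. With the replicate block edgeR called 0 genes, 1427 at an unadjusted p under 0.05, and the median log2 fold change of the NRF2 pathway genes was 0.09; the numbers mark no known pairing. Leaving out each library in turn gave 0 to 122 calls, and leaving out WT replicate 1 and Hete replicate 2 together gave 4; fewer libraries are tested there, and the cause of the other shifts was not tested.

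Of the NRF2 pathway genes 0 passed, against 1 (Gclc) in DESeq2. Their groups did not overlap for 2 genes, against 2 to 4 with each library left out and 5 without WT replicate 1 and Hete replicate 2 together; fewer libraries overlap less often, and the share over all genes then was 23.3% to 32.7% and 44.8%. Their median log2 fold change was 0.09 with all libraries. It was higher with each library left out, at 0.10 to 0.22, and was 0.18 without WT replicate 1 and Hete replicate 2 together. The median over all tested genes stayed between −0.00476 and 0.0265 with each library left out.

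Signs turned only for genes far from the threshold. Txnrd1 was 0.0040 with RLE scaling, 0.017 without a filter, 0.0041 in DESeq2, 0.22 with the acute phase covariate, 0.12 without Hete replicate 3, 0.14 without WT replicate 1 and 0.055 without WT replicate 1 and Hete replicate 2. With the covariate, Nfe2l2 was −0.072, Nqo1 −0.21, Gpx4 −0.13, Cebpb 0.34, Mafk 0.044, Maff 0.33, Lpcat3 −0.15 and Cps1 0.066. Keap1 was −0.0062 without Hete replicate 2 and −0.010 without WT replicate 1 as well. With each library left out, Nfe2l2 ran from 0.050 to 0.40, Srxn1 from 0.017 to 0.17, Gsr from 0.10 to 0.19, Nqo1 from −0.16 to 0.25, Gpx4 from −0.10 to 0.22, Keap1 from −0.0062 to 0.11, Txnrd1 from −0.079 to 0.14, Cebpb from −0.70 to 0.016, Maff from −0.56 to 0.073, the globin genes Hba-a2 from −0.17 to 0.77 and Hbb-bs from −0.16 to 0.64. Of 144 values of NRF2 pathway genes, 128 kept sign and side, 15 turned and 1 passed. Slc7a11, under 12 counts in every library, could be tested only without a filter.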
